A study of Homo sapiens with 9 samples.

Results

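Among the genes that HEK293A cells labelled as p65 knockout left silent with an empty vector, 91 protein-coding genes gained reads when p65 was put back, and nearly all of them stayed far lower with the p65 2CS plasmid than with the p65 WT plasmid. A gene was taken as a member when it had at most 3 reads summed over the vector libraries and a mean of at least 0.5 CPM (the count scaled to the column total) over the 6 libraries with either form of p65. Chemokines, interleukins, TNF, Toll-like receptor, APOL, BATF and IRF family genes and 8 further named genes were left out by their symbols, which removed 13 genes. The table held 19951 protein-coding genes, of which 4177 were silent with vector by this rule: 1979 had no read with either form of p65, 2094 had reads but lay under 0.5 CPM, and 104 (2.49%) reached it. The members are therefore defined by their vector reads and by their mean over both forms, so their distance from vector is a description and was not tested. The difference between the forms was not used in the choice, although a gene could reach the mean through 1 form alone.

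HEK293A is a human embryonic kidney cell line. Cells carrying the p65 knockout were transfected with p65 2CS, p65 WT or vector plasmids and were given TNF at 20 ng/mL for 2 h, starting 24 h after transfection, and 3 libraries of polyadenylated RNA were sequenced per group. All groups therefore share the knockout and the TNF treatment. The series concerns the palmitoylation of p65, and the labels do not spell out what 2CS changes, whether the knockout line is 1 clone, or whether each library is a culture of its own. The p-values therefore reflect the variation among these libraries, which could be technical alone.

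p65, encoded by RELA, is the subunit of NF-kB that carries its strongest transactivation domain. It is held in the cytoplasm by inhibitor proteins until signals such as TNF lead to their breakdown, and it then enters the nucleus and binds kB sites in promoters and enhancers. Its best known targets are cytokine, chemokine, adhesion and survival genes, and the genes described here lie outside those families.

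RELA averaged 25518 ± 1382 CPM with p65 2CS, 9003 ± 943 CPM with p65 WT and 67.7 ± 1.61 CPM with vector (SD, n = 3 libraries per group), counted without separating plasmid from chromosomal transcripts. It was thus more abundant in the p65 2CS libraries, by 1.503 ± 0.037 (SE) on the log2 scale over p65 WT. Library totals ran from 17146134 to 25068515 counts with p65 2CS, from 15989601 to 16507689 with p65 WT and from 17923114 to 20162267 with vector. The 10 markers of kidney and HEK293 lineage summed to 150 to 162 CPM with p65 2CS, 171 to 181 CPM with p65 WT and 157 to 161 CPM with vector, so markers of the labelled cell type were read in every group. In bulk RNA, fewer cells that express a gene and less RNA per cell cannot be told apart, and this includes a different share of transfected cells.

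Summed over the 91 members, the level was 39.5, 41.9 and 36.6 CPM in the p65 2CS libraries, 390, 340 and 410 CPM in the p65 WT libraries and 1.76, 1.81 and 1.99 CPM in the vector libraries. The p65 2CS sums lay between those of the other groups, with no overlap. Over the members the p65 2CS mean was a median of 5.70% of the p65 WT mean (quartiles 1.48% and 14.8%). As a ratio of means, with genes that had no p65 2CS read set at their lower bound, the p65 2CS level was lower by 10-fold or more in 61 members, by 4- to 10-fold in 13 and by less than 4-fold, or was higher, in 17. The count of members at 0.5 CPM or more was 17 for both forms, 74 for p65 WT alone and 0 for p65 2CS alone.

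The difference between the forms was tested with edgeR's quasi-likelihood test, with p-values adjusted by the Benjamini-Hochberg method over the 18195 genes with enough reads, and a gene is called when its adjusted p is under 0.05. Of the 91 members, 86 were tested, and 81 were called lower with p65 2CS. Over all genes tested 17.9% were called lower. None was called higher, against 13.4% of all genes. EGFL6 was the 1 member higher at an unadjusted p under 0.05. DESeq2 called 82 of the 91 members lower and 0 higher. Over all 36884 genes in that fit it called 3287 lower and 2014 higher, and 11089 had no adjusted p. Members that passed the filter on low counts through their p65 WT reads alone had to differ, so the count over all 91 was also taken without the filter: 84 were called lower and 0 higher, against 9.51% of the 36884 genes in that fit called lower. This does not remove the choice made by the rule. A mean over both forms can be reached through 1 form alone, so the rule can favour genes that differ, in either direction. The shares over all genes were not chosen in that way and are not a like background. In the libraries themselves, 85 of the 91 members had every p65 2CS library below every p65 WT library (21.8% of all genes tested), 1 had every p65 2CS library above (18.9%), and 5 overlapped. The median log2 fold over the tested members was -4.04 (quartiles -5.60 and -2.77), and that over all genes tested was 0.00.

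**Figure D1:**
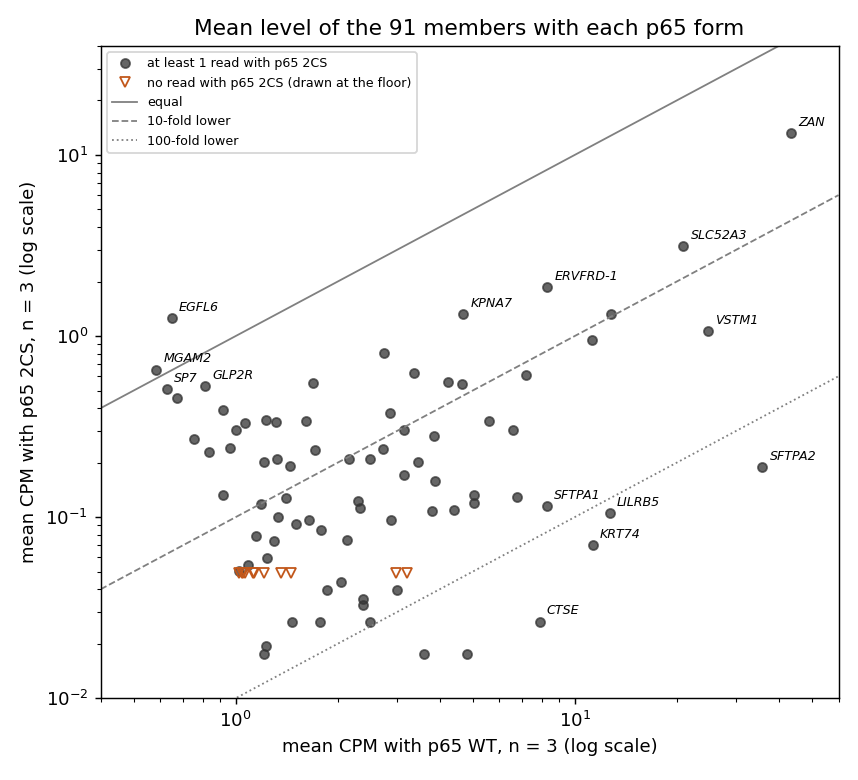
Mean CPM with p65 2CS against mean CPM with p65 WT for the 91 members, both axes on a log scale, each point 1 gene and genes with no p65 2CS read drawn at the group's floor. Nearly all points lie below the line of equal level, and EGFL6 and MGAM2 are the 2 members whose p65 2CS mean is the higher one.

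The vector libraries together held 0 reads of 35 members, 1 read of 24, 2 reads of 14 and 3 reads of 18. With p65 2CS, 11 members had no read in any library, 15 had 1 to 3 reads in all, 23 had 4 to 10 and 42 had more than 10. With p65 WT the summed count ran from 28 to 2087, with a median of 98. A count of 0 over a group allows up to 3 reads, which is 0.0489 CPM with p65 2CS, and this floor covers counting error only. Members were low even with p65 WT: per kilobase of gene length (RPKM) they ran from 0.0716 to 17.6 with a median of 0.564, and 7 of the 91 lay above the median of the protein-coding genes that had a read.

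The RefSeq promoter table of GRCh38.p14 held 60 of the 91 members, under 80%, so the share of members with a motif cannot be set against other genes and that comparison is void. As a description, 6 of the 60 promoters, taken from 250 bases before to 50 after the first listed start, held the NF-kB consensus on either strand (LILRB5, CABP2, GSTT4, FAM107A, TRIM31 and GIMAP8). It was in 10.8% of all 27305 promoters in the table. Among silent protein-coding genes with fewer than 3 reads over the p65 libraries, it was in 6.89% of the 1756 promoters held. A less degenerate form of the motif, with 3 free bases, was on either strand in 7 of the 60, in 6.92% of all promoters and in 6.26% of those 1756. Its matches can overlap those of the consensus. All 6 members with the consensus were called lower with p65 2CS, as were 46 of the 49 tested among the 54 without it. The median ratio of p65 WT to p65 2CS means was 20.5 with it and 20.9 without it. The promoters below show 3 genes with the consensus in capitals and, for contrast, the surfactant pair, whose windows hold no match. LILRB5 is at chr19:54257224-54257523 (minus strand), GIMAP8 at chr7:150450380-150450679 (plus strand), TRIM31 at chr6:30113041-30113340 (minus strand), SFTPA2 at chr10:79560358-79560657 (minus strand) and SFTPA1 at chr10:79610689-79610988 (plus strand).
LILRB5: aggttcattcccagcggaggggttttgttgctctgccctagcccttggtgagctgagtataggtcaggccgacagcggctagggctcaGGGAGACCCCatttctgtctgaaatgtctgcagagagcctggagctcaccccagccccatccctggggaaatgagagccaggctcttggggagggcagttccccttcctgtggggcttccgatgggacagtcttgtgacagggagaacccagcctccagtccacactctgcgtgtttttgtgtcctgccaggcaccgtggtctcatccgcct
GIMAP8: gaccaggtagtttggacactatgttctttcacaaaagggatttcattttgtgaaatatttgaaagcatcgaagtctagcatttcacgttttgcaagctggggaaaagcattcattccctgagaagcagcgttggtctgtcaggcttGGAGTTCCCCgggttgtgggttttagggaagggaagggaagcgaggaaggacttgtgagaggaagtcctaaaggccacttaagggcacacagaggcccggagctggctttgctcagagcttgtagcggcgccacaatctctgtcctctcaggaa
TRIM31: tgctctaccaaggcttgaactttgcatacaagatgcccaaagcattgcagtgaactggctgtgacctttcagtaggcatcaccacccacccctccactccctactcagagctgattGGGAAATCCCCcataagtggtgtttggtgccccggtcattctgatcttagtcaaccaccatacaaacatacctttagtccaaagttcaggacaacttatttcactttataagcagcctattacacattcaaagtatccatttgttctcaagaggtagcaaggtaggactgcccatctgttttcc
SFTPA2: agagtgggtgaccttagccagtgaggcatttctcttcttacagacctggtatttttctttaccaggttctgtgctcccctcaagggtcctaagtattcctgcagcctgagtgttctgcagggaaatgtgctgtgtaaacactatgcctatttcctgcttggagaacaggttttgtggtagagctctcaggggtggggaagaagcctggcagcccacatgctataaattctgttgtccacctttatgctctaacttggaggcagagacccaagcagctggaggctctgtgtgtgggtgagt
SFTPA1: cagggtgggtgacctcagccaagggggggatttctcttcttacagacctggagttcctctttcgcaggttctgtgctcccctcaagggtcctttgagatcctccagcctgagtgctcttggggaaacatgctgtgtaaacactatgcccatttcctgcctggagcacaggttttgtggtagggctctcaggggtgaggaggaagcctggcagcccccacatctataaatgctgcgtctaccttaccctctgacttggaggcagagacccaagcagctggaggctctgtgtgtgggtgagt

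The LILRB5 match starts 162 bases before the start site, that of GIMAP8, a small GTPase of lymphocytes, 104 bases before it, and in TRIM31 a pair of overlapping matches begins 134 bases before it. GIMAP8 had 0.0582, 0 and 0.105 CPM with p65 2CS, against 1.45, 0.950 and 0.865 CPM with p65 WT, and TRIM31 had 0.582, 0.199 and 0.211 CPM with p65 2CS, against 0.946, 1.27 and 0.989 CPM with p65 WT. A match is a run of letters and not a measured binding site, and a window without one says nothing of p65 at that gene.

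The role group of mucosal and secreted defence held 8 members, and all 8 were called lower with p65 2CS, with the most negative median log2 fold of the role groups (-5.74). It is a loose group that also holds the protease CTSE, the gastric lipase LIPF and the mucin-like gene MUCL3. The groups by role were assigned from the names of the members after these were known. SFTPA2 and SFTPA1 encode surfactant protein A, a collectin that alveolar type II cells of the lung secrete to bind microbes. SFTPA2 (ENSG00000185303, chromosome 10, 79555852 to 79560402, minus strand, GRCh38) had 0.116, 0.238 and 0.211 CPM with p65 2CS, against 34.9, 35.2 and 37.2 CPM with p65 WT, and 1 read in all with vector. Its p65 2CS libraries were closer to vector than to p65 WT, and the log2 fold was -7.47 ± 0.19 (SE; edgeR adjusted p = 1.6e-30). That SE was derived from the test statistic. With 12 p65 2CS reads in all, it can be smaller than the counting error, as for other members with few reads. SFTPA1, its neighbour 50.5 kb away on the plus strand (ENSG00000122852, 79610939 to 79615455), had 0.175, 0.119 and 0.0527 CPM with p65 2CS, against 7.26, 7.79 and 9.77 CPM with p65 WT, and no vector read. These paralogs share 20.7% and 22.4% of their 50-base stretches, so reads may have been split between them. Both were called lower with p65 2CS, with -6.10 ± 0.33 for SFTPA1 (adjusted p = 4.4e-18).

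LCN1, the lipocalin of tears, had no read in any p65 2CS or vector library and 3.28, 2.91 and 3.40 CPM with p65 WT, which makes it at least 65.4-fold lower with p65 2CS, at the floor over the group. CTSE, an aspartic protease of gastric and immune cells, had 0, 0.0795 and 0 CPM with p65 2CS (2 reads in all), against 8.83, 6.46 and 8.35 CPM with p65 WT. That ratio of 242 has a 95% counting interval of 66.5 to 2004. PI3, which encodes the elastase inhibitor elafin, kept more with p65 2CS: 0.815, 0.437 and 0.580 CPM, against 6.94, 7.35 and 7.23 CPM with p65 WT (log2 fold -3.58 ± 0.26, adjusted p = 5.1e-15). PGLYRP2, an amidase that cleaves bacterial peptidoglycan, averaged 0.120 ± 0.124 CPM with p65 2CS and 5.06 ± 0.678 CPM with p65 WT. LIPF, the gastric lipase, averaged 0.282 ± 0.0396 CPM with p65 2CS and 3.85 ± 0.196 CPM with p65 WT. MUCL3, a mucin-like gene of the MHC region, averaged 0.0749 CPM with p65 2CS and 2.13 CPM with p65 WT.

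**Figure D2:**
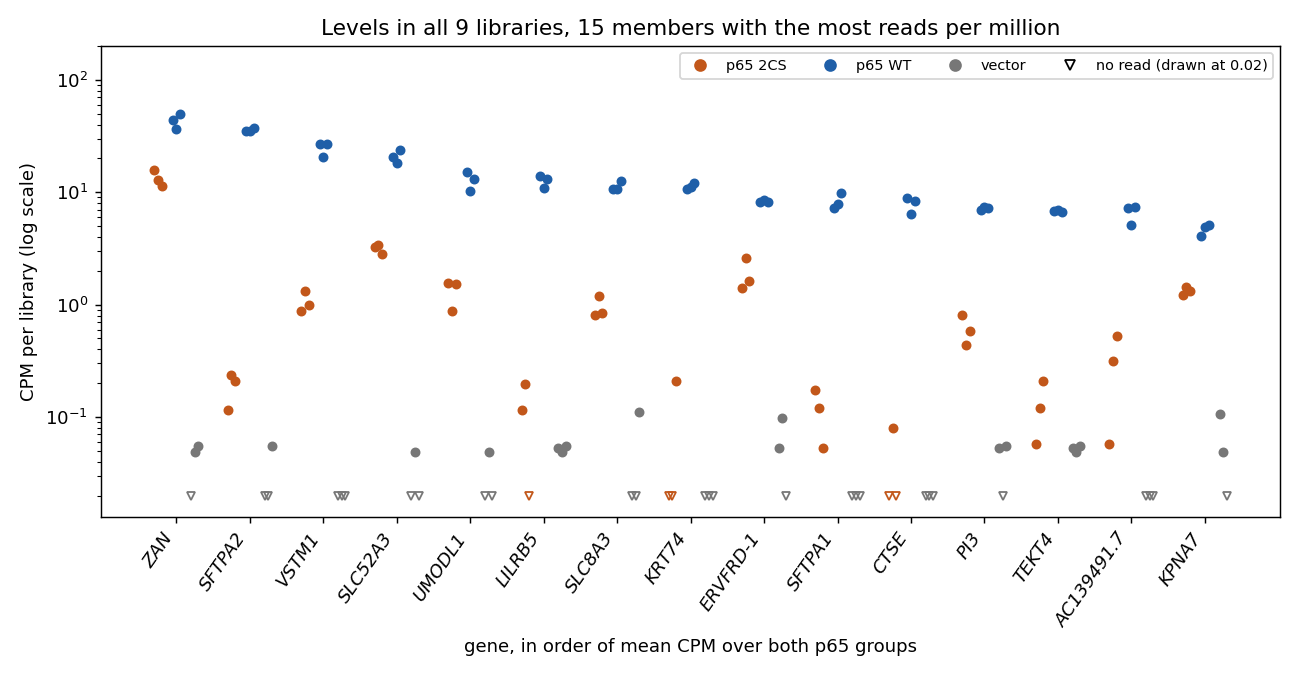
CPM in each of the 9 libraries, on a log scale, for the 15 members with the highest mean over both p65 forms, with p65 2CS, p65 WT and vector side by side and open triangles for libraries without a read. The p65 2CS libraries lie below the p65 WT libraries in all 15 genes, and the p65 2CS means of SFTPA2, LILRB5, KRT74, SFTPA1, CTSE and TEKT4 are the 6 lowest shown, at 0.0265 to 0.189 CPM.

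Genes best known from blood and immune cells were 16 members, of which 15 were called lower with p65 2CS and PIK3R6 was not called. VSTM1, an inhibitory receptor of granulocytes and monocytes (ENSG00000189068, chromosome 19, 54040825 to 54063953, minus strand), had the highest p65 WT level per length of all members, 17.6 RPKM. It had 0.873, 1.31 and 1.00 CPM with p65 2CS, against 26.9, 20.5 and 26.6 CPM with p65 WT, and no vector read (log2 fold -4.50 ± 0.17, adjusted p = 1.9e-23). LILRB5, a leukocyte immunoglobulin-like receptor whose promoter holds the NF-kB consensus (ENSG00000105609, chromosome 19, 54249431 to 54257301, minus strand), had 0.116, 0.199 and 0 CPM with p65 2CS, against 13.9, 10.9 and 13.2 CPM with p65 WT, and 1 read in each vector library. The p65 2CS values of LILRB5 were therefore in the range of 1 or a few reads, and its log2 fold was -6.72 ± 0.30 (adjusted p = 2.0e-21). SP140, a nuclear body protein of leukocytes, had 0.0582, 0.159 and 0.105 CPM with p65 2CS, against 4.67, 2.98 and 3.77 CPM with p65 WT. CD1E, a lipid antigen-presenting protein of dendritic cells, had no p65 2CS or vector read and 1.51, 1.27 and 1.30 CPM with p65 WT, which puts CD1E at least 27.8-fold lower with p65 2CS. POU2AF1, a coactivator of octamer-binding factors in B cells, had 3 reads in all with p65 2CS and 143 with p65 WT, and PADI4, the neutrophil enzyme that citrullinates histones, had 3 with p65 2CS and 98 with p65 WT.

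3 of the immune genes showed smaller differences. UBASH3A, a regulator of T cell receptor signalling, averaged 0.547 ± 0.181 CPM with p65 2CS and 1.70 ± 0.233 CPM with p65 WT (log2 fold -1.58 ± 0.38, adjusted p = 0.0012). ADGRE1, an adhesion receptor whose mouse counterpart is the macrophage marker F4/80, averaged 0.303 ± 0.181 CPM with p65 2CS and 1.00 ± 0.363 CPM with p65 WT. Its call (-1.62 ± 0.50, adjusted p = 0.011) was lost without p65 2CS replicate 7 or without p65 WT replicate 6. PIK3R6, a regulatory subunit of a leukocyte PI3 kinase, had 0.175, 0.676 and 0.316 CPM with p65 2CS and 1.01, 0.380 and 1.36 CPM with p65 WT, groups that overlapped (-1.14 ± 0.50, adjusted p = 0.083). Without p65 2CS replicate 8 or p65 WT replicate 5, PIK3R6 was called lower, at -1.86 and -1.51. The leukocyte marker list of 13 genes summed to 64.9 to 67.0 CPM with p65 2CS, 64.0 to 66.2 CPM with p65 WT and 72.6 to 73.7 CPM with vector, with reads for 11, 9 and 8 of its genes. NCAM1, which is also a neural gene, supplied most of that sum, with 60.3 CPM with p65 2CS, 58.2 CPM with p65 WT and 68.5 CPM with vector. ITGAM averaged 1.45 ± 0.341 CPM with p65 2CS, 2.24 ± 0.377 CPM with p65 WT and 0.421 ± 0.0670 CPM with vector. SPI1 averaged 0.276 ± 0.0418 CPM with p65 2CS, 0.753 ± 0.255 CPM with p65 WT and 0.331 ± 0.0112 CPM with vector, and NKG7 averaged 0.121 ± 0.0715 CPM with p65 2CS, 0.395 ± 0.340 CPM with p65 WT and 0.363 ± 0.114 CPM with vector. The part of leukocyte genes in the result was not tested. MS4A1 had no read in any library, and PTPRC, which all leukocytes carry, had no read with p65 WT or vector. HBB, a gene of red blood cells that the list also holds, had no read in any library either. The 6 endothelial markers summed to 13.2 to 14.3 CPM with p65 2CS, 43.34 to 50.01 CPM with p65 WT and 10.1 to 11.3 CPM with vector. CLDN5 and VWF account for most of that sum. PECAM1 was at 0.0132 CPM with p65 2CS, 0.0628 CPM with p65 WT and 0.123 CPM with vector. The part of endothelial genes in the result was not tested.

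Germ cell and cancer-testis genes were 9 members, and the 8 that were tested were called lower. ZAN, which encodes the sperm protein zonadhesin that binds the egg coat (ENSG00000146839, chromosome 7, 100733626 to 100797797, plus strand), was the member with the most reads. It kept much of its level with p65 2CS: 15.7, 12.8 and 11.3 CPM, against 44.0, 36.7 and 50.1 CPM with p65 WT, and 2 vector reads (log2 fold -1.73 ± 0.10, adjusted p = 3.0e-18). KPNA7, an importin of oocytes and early embryos, was in the same range with 1.22, 1.43 and 1.32 CPM with p65 2CS, against 4.10, 4.88 and 5.07 CPM with p65 WT (-1.81 ± 0.24, adjusted p = 9.2e-08). TEKT4, a tektin of the sperm flagellum, had 0.0582, 0.119 and 0.211 CPM with p65 2CS, against 6.75, 6.91 and 6.61 CPM with p65 WT, and 1 read in each vector library. FAM47C had 1 read in all with p65 2CS, 230 with p65 WT and none with vector, and its ratio of 295 has a 95% counting interval from 52.4 to 11702. POTEC, a primate gene expressed in testis and some cancers, had no read with p65 2CS or vector and 1.32, 0.887 and 2.16 CPM with p65 WT, which puts POTEC at least 29.8-fold lower with p65 2CS. PXT1 sat just inside the CPM threshold and had a call (-1.43 ± 0.52, adjusted p = 0.033) that was lost with DESeq2, without the filter and without p65 2CS replicate 7 or 9 or p65 WT replicate 5. XAGE1B, a cancer-testis antigen, was not tested, and its 7.63, 1.01 and 0.247 CPM with p65 WT rest mostly on 1 library.

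Keratins and skin barrier genes were 5 members, and all 5 were called lower with p65 2CS. KRT74, a keratin of the inner root sheath of hair (ENSG00000170484, chromosome 12, 52565782 to 52573825, minus strand), had 0, 0 and 0.211 CPM with p65 2CS, against 10.8, 11.1 and 11.99 CPM with p65 WT, and no vector read (log2 fold -7.29 ± 0.36, adjusted p = 1.8e-19). KRT2, a keratin of the upper epidermis that lies 70.7 kb away in the type II keratin cluster, had 0.291, 0.199 and 0.422 CPM with p65 2CS, against 3.85, 2.66 and 2.91 CPM with p65 WT. KRT6B, a keratin of wounded and hair follicle epithelium, had 0.233, 0.636 and 0.263 CPM with p65 2CS, against 2.90, 2.47 and 3.21 CPM with p65 WT, and 47.1% of its 50-base stretches recur in KRT6A, KRT6C or KRT5. TGM5, a transglutaminase of the epidermis, averaged 0.0968 CPM with p65 2CS and 2.86 CPM with p65 WT. GSDMA, a pore-forming gasdermin of skin, averaged 0.0739 CPM with p65 2CS and 1.30 CPM with p65 WT. Of the 37 keratin genes silent with vector, 3 were members (8.11%), beside 2.18% of all silent protein-coding genes, a count too small to be read against that share.

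Transporters and channels were 6 members, with 5 tested and all 5 called lower. SLC52A3, a riboflavin transporter, had 3.26, 3.38 and 2.79 CPM with p65 2CS, against 20.5, 18.4 and 23.9 CPM with p65 WT, and 1 vector read (-2.73 ± 0.14, adjusted p = 1.7e-19). SLC8A3, a sodium-calcium exchanger of muscle and brain, had 0.815, 1.19 and 0.843 CPM with p65 2CS, against 10.6, 10.6 and 12.7 CPM with p65 WT. SLC26A9, a chloride transporter of airway and stomach, averaged 0.544 ± 0.198 CPM with p65 2CS and 4.66 ± 0.285 CPM with p65 WT, and lies 65.8 kb from CTSE on chromosome 1. ABCB11, the bile salt export pump, had no p65 2CS read and averaged 1.02 CPM with p65 WT. KCNJ9, a G protein-gated potassium channel, averaged 0.345 CPM with p65 2CS and 1.23 CPM with p65 WT, and its call (-1.73 ± 0.48, adjusted p = 0.0049) was lost without p65 WT replicate 6. SLC9A4 was not tested by the main fit. Matched by the start of the gene symbol alone, solute carriers supplied 4 of their 65 silent genes (6.15%) and ion channels 1 of their 57 (1.75%). The share over all silent protein-coding genes was 2.18%. These counts are too small to be read against that share.

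Genes of the nervous system and sense organs were 12 members, all called lower with p65 2CS (median log2 fold -3.71). CABP2, a calcium-binding protein of retina and hair cells, had 0.116, 0.437 and 0.0527 CPM with p65 2CS, against 3.53, 4.12 and 2.72 CPM with p65 WT. TH, the rate-limiting enzyme of catecholamine synthesis, had no p65 2CS or vector read and 1.32, 0.950 and 1.11 CPM with p65 WT. KNCN, a gene of inner ear hair cells, had no p65 2CS or vector read either and averaged 1.21 CPM with p65 WT. NPY1R, a receptor of neuropeptide Y, had 0.0582, 0.199 and 0.316 CPM with p65 2CS, against 1.64, 1.58 and 1.11 CPM with p65 WT (-2.85 ± 0.50, adjusted p = 1.8e-05).

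Liver, gut and detoxifying enzymes were 9 members, with 8 tested and 7 called lower. GSTT4, a glutathione transferase gene, had 1 read in all with p65 2CS and 172 with p65 WT, and its ratio of 221 has a 95% counting interval from 39.1 to 8764. LPA, which encodes apolipoprotein(a), had 0.931, 0.636 and 0.316 CPM with p65 2CS, against 2.90, 2.91 and 4.27 CPM with p65 WT (-2.42 ± 0.34, adjusted p = 2.0e-07). CYP1A2, a hepatic cytochrome P450, averaged 0.810 ± 0.101 CPM with p65 2CS and 2.73 ± 1.08 CPM with p65 WT (-1.74 ± 0.35, adjusted p = 0.00010). MGAM2, a maltase-glucoamylase-like gene, was not called: it had 0.175, 1.31 and 0.474 CPM with p65 2CS and 0.694, 0.317 and 0.742 CPM with p65 WT (0.26 ± 0.52, adjusted p = 0.76). The fold of MGAM2 was -0.81 without p65 2CS replicate 8 and -0.04 without p65 WT replicate 5. The 3 hepatocyte markers ALB, APOA1 and TTR summed to 0.524 to 0.835 CPM with p65 2CS, 0.185 to 0.570 CPM with p65 WT and 0.440 to 0.747 CPM with vector.

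Growth factors, hormones and their receptors were 6 members, of which 4 were called lower and 2 were not called. FGF19, a hormone of the ileum that lowers bile acid synthesis, had 0.466, 0.795 and 0.422 CPM with p65 2CS, against 3.66, 4.24 and 4.82 CPM with p65 WT (-2.86 ± 0.30, adjusted p = 2.9e-10). IGFL1, a ligand of the IGF-like family, had 2 reads in all with p65 2CS and 114 with p65 WT. TDGF1, a Nodal co-receptor of stem cells, had 2 with p65 2CS and 85 with p65 WT. FAM3B, a secreted factor of pancreatic islets, had none with p65 2CS and 51 with p65 WT, which puts FAM3B at least 21.8-fold lower with p65 2CS. EGFL6, a secreted EGF-like protein (ENSG00000198759, chromosome X, 13569605 to 13633575, plus strand), was the exception, with 1.22, 1.27 and 1.26 CPM with p65 2CS, against 0.757, 0.380 and 0.804 CPM with p65 WT, and 1 vector read. All 3 of its p65 2CS libraries lay above the p65 WT libraries, and the log2 fold of 0.95 ± 0.40 missed the threshold (adjusted p = 0.066). EGFL6 passed it when only the 6 p65 libraries were fitted (adjusted p = 0.048). GLP2R, the receptor of glucagon-like peptide 2, had 0.524, 0.636 and 0.422 CPM with p65 2CS and 0.631, 0.824 and 0.989 CPM with p65 WT, which overlapped at 0.631 and 0.636 CPM (-0.60 ± 0.47, adjusted p = 0.36).

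The remaining 20 members had other or less studied roles, and 17 of the 18 tested were called lower. UMODL1, an uromodulin-like protein, had 1.57, 0.874 and 1.53 CPM with p65 2CS, against 15.1, 10.2 and 13.04 CPM with p65 WT. ERVFRD-1, the retroviral envelope gene that encodes the placental fusion protein syncytin-2, had 1.40, 2.58 and 1.63 CPM with p65 2CS, against 8.20, 8.49 and 8.16 CPM with p65 WT (-2.10 ± 0.20, adjusted p = 4.2e-11). AC139491.7 had 0.0582, 0.318 and 0.527 CPM with p65 2CS, against 7.26, 5.13 and 7.36 CPM with p65 WT, and 76.5% of its 50-base stretches recur in other genes. RCSD1, a regulator of actin capping, had no p65 2CS or vector read and averaged 1.05 CPM with p65 WT. TRIM31, a ubiquitin ligase, averaged 0.330 ± 0.218 CPM with p65 2CS and 1.07 ± 0.174 CPM with p65 WT, and its call (-1.74 ± 0.48, adjusted p = 0.0046) was lost without p65 2CS replicate 8. SP7, the osteoblast factor osterix, had 0.640, 0.358 and 0.527 CPM with p65 2CS and 0.631, 0.697 and 0.556 CPM with p65 WT, groups that overlapped (-0.34 ± 0.48, adjusted p = 0.65).

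**Figure D3:**
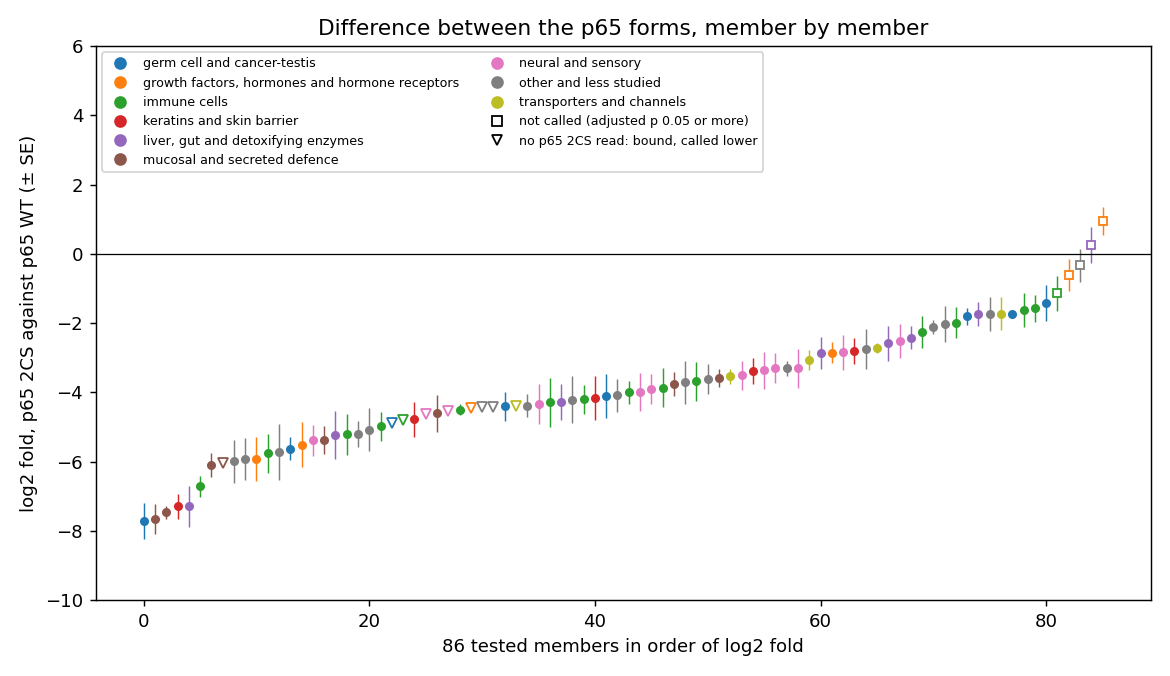
Log2 fold of p65 2CS against p65 WT for the 86 tested members in order, coloured by role, with standard errors derived from the test statistic. Open squares mark members that were not called. Open triangles mark members with no p65 2CS read, drawn at their bound without an error bar. All points but EGFL6 and MGAM2 lie below 0, and the members not called are EGFL6, MGAM2, SP7, GLP2R and PIK3R6.

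The 5 members that the filter kept out of the main fit were XAGE1B, PRODH2, DENND2D, ISX and SLC9A4. Without the filter ISX, an intestinal homeodomain factor, and PRODH2, a hydroxyproline dehydrogenase, were called lower, as was XAGE1B. ISX had no p65 2CS read and 1.77, 0.443 and 1.17 CPM with p65 WT, and PRODH2 had 1 read with p65 2CS and 0.505, 1.27 and 1.92 CPM with p65 WT. SLC9A4, a sodium-proton exchanger, was called at -1.78 ± 0.59 (adjusted p = 0.018), although its libraries overlapped. DENND2D, a RAB exchange factor, was not (-0.58 ± 0.54, adjusted p = 0.60), with 0.524, 0.318 and 0.527 CPM with p65 2CS against 0.568, 0.887 and 0.556 CPM with p65 WT.

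The members were also placed among their neighbours on the chromosomes. A gene counted as raised when the mean of both p65 forms was at least 2-fold above vector, with an edgeR adjusted p under 0.05. Another raised gene was within 100 kb of 29 of the 91 members (31.9%). The same held for 255 of the 2747 silent protein-coding genes with fewer than 3 reads over the p65 libraries (9.28%). Raised genes included members, so members could count each other, while the silent genes not switched on could not. The shares are therefore not measured alike, and their difference was not tested. The pairs in which both genes were members were SFTPA2 with SFTPA1, KRT74 with KRT2 and CTSE with SLC26A9. HCAR3, a receptor for hydroxylated fatty acids, lies 11.4 kb from HCAR2 and shares 34.0% of its 50-base stretches with it. TH lies 14.3 kb from IGF2, and KCNJ9 11.1 kb from KCNJ10. An overlap with any other gene was found for 37 members (40.7%) and for 47.5% of the silent genes that were not switched on.

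Without a stated strand setting, reads of overlapping genes cannot be told apart. For 6 members an overlapping gene had a higher CPM with p65 WT than the member itself: ERVFRD-1 with SMIM13, PRR26 with DIP2C, SP140 with SP110, CEP295NL with TIMP2, GK3P with KLHL2 and PXT1 with KCTD20. SMIM13 averaged 49.4 CPM with p65 2CS, 46.5 CPM with p65 WT and 56.3 CPM with vector, whereas ERVFRD-1 had 3 reads in all with vector. SP110 averaged 11.0 CPM with p65 2CS, 9.50 CPM with p65 WT and 10.5 CPM with vector. KCTD20 was highest with vector, at 94.5 CPM. DIP2C averaged 43.7 CPM with p65 2CS, 50.5 CPM with p65 WT and 35.9 CPM with vector. TIMP2, on the strand of CEP295NL, averaged 84.1 CPM with p65 2CS, 115.4 CPM with p65 WT and 85.3 CPM with vector. KLHL2 averaged 21.9 CPM with p65 2CS, 24.4 CPM with p65 WT and 22.8 CPM with vector. DIP2C, TIMP2 and KLHL2 were thus highest with p65 WT, as were their members. The part of overlapping reads in the result was not tested. A same-strand gene of at least 1 CPM with p65 WT that ends within 10 kb upstream was found for 5 members (5.49%), beside 4.91% of the silent genes that were not switched on. For GSTT4 that gene was AC253536.4, with 0 CPM in p65 2CS, 3.27 CPM in p65 WT and 0 CPM in vector libraries. Read sharing between paralogs was limited: 52 members share no 50-base stretch of their transcripts with another gene and 15 share at least 10%. Without those 15, 67 of the 76 that remain were called lower and 0 higher, and PRODH2, DENND2D, ISX and SLC9A4 among the 76 were not tested.

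The members were set beside other genes raised by p65. The 94 genes of other biotypes with the same vector and p65 values had a median log2 fold of -4.66, with 84 of 88 tested called lower and 0 higher. The 13 genes left out by family had a median of -2.88, with 13 of 13 called lower. The 466 protein-coding genes that had more than 3 vector reads and were raised at least 2-fold had a median of -1.62, with 368 called lower and 7 higher. The median over the members was thus more negative than that of p65-raised genes already read with vector. The choice of the sets bears on this, since the median vector level was 0.0178 CPM for the members and 0.599 CPM for the 466 genes. A gene that stays at its vector level with p65 2CS can fall less far where that level is higher. The medians therefore cannot be read as a difference in response, and whether the sets differ was not tested.

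**Figure D4:**
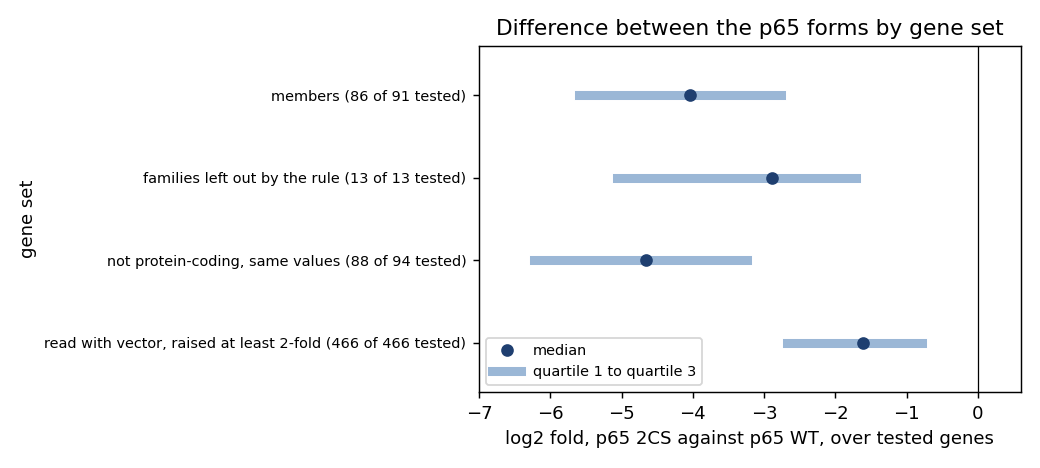
Log2 fold of p65 2CS against p65 WT for the members and for the 3 other sets of p65-raised genes, as medians with quartiles. The medians are -4.04 for the members, -2.88 for the families left out, -4.66 for other biotypes and -1.62 for genes already read with vector.

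The members were also set against known NF-kB targets. Of 126 target genes listed from outside the families left out, 43 were silent with vector and 3 of these, PI3, KRT6B and NPY1R, reached 0.5 CPM (6.98%, beside 2.18% of all silent protein-coding genes). That count is too small to be read against the share. In the whole list 69 were tested, of which 38 were called lower with p65 2CS and 4 higher, with a median log2 fold of -0.40. Against vector, 26 of the 69 were called higher with p65 2CS (12.1% of all genes) and 43 with p65 WT (16.4% of all genes). These comparisons share the vector libraries. CD86, a costimulatory ligand, was the listed gene with the most negative fold, at 0.382 ± 0.190 CPM with p65 2CS and 32.9 ± 2.75 CPM with p65 WT, and its 16 vector reads kept it from being a member. The 18 genes of NF-kB feedback and of its subunits had no silent gene. Of the 17 tested, 12 were called lower and 1 higher, with a median of -0.63. Families were matched by the start of the gene symbol alone. They miss genes of the same kind with other symbols, such as the members NPY1R, GLP2R, HCAR3, PI3 and VSTM1. By these symbols, the members took 2 of 39 silent immunoglobulin-type receptors (5.13%), 1 of 8 silent mucins (12.5%) and 1 of 28 silent CD antigens (3.57%). They took 1 of 70 silent genes with the G protein-coupled receptor symbols (1.43%) and 1 of 74 with the protease and inhibitor symbols (1.35%). Of silent zinc finger genes they took 0 of 36, of silent lectins 0 of 31 and of silent complement and coagulation genes 0 of 24. These counts are too small to be read against the share of 2.18%.

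The threshold of 0.5 CPM cut through a continuous range. Just inside it were RCSD1 (0.515 CPM over the p65 libraries), VIT (0.514), PXT1 (0.506) and ABCB11 (0.502), and just outside it SCRT2 (0.479), C1QTNF8 (0.475), SV2B (0.471) and G6PC (0.463). There were 18 members with 3 vector reads, and 11 genes with 4 vector reads and enough CPM stood just outside. Those with 4 were led by GPR12 at 0.437 CPM with p65 2CS and 15.2 CPM with p65 WT, and by HCAR2 at 0.141 CPM with p65 2CS and 5.92 CPM with p65 WT.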

How the data were processed

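Polyadenylated RNA of 9 libraries was sequenced, per the labels' protocols. Per the submitters' processing notes the aligner was HISAT2 2.0.5. The counting tool was not given in the sources used here, nor were its strand setting and the genome build. The deposited table gives raw counts per gene for 58735 genes, not normalised by the authors. All 91 members had the chromosome, start, end and strand of GENCODE release 29 (GRCh38). The deposited counts were tested with edgeR 4.0.16 in R 4.3.3: filterByExpr, TMM scaling, a quasi-likelihood fit to the 9 libraries with 1 mean for each of the groups, and Benjamini-Hochberg adjustment over the 18195 genes tested, at 0.05. Library totals were 15989601 to 25068515 counts. The fitting code was first tested on simulated counts. CPM in the text is per TMM-scaled total, while the rule for members used the column totals. RPKM was computed here from CPM and the deposited gene length. The SE of a log2 fold was computed here as the size of the fold divided by the square root of edgeR's quasi-likelihood F. It is not a fitted SE, and where a group has few reads it can be smaller than the counting error. Folds against a group without a read use a floor of 3 counts over the group, and with 1 to 3 reads the 95% interval is the exact binomial one (Clopper-Pearson). Both cover counting error only. The alternatives were DESeq2 1.42.0, other scalings, no filter, fewer libraries and other rules for members.

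The members, role groups and lists were chosen with earlier results of these data known. Named with values are the 15 members with the highest mean CPM, the 12 most negative called folds, the 12 highest folds, members on the lists, members and genes next to the thresholds, 2 to 4 genes per role group, and RELA. CD86, HCAR2 and the overlapping, neighbouring and marker genes were named after their values were seen. No sequence was taken from the reads. A few members that this rule names are counted but not reported here by name.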

Additional observations from a re-analysis of the deposited data

How the results depend on the processing

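The members kept their direction in most settings. Counts called lower with p65 2CS stayed at 81 of 86 tested with RLE size factors, with library totals alone and with RELA left out. They were 82 of 91 with DESeq2 and 84 of 91 without the filter. When each library was left out they ran from 80 of 88 to 85 of 90, with 0 called higher. Between 87 and 91 members were tested in those fits, so the counts are not directly comparable with 81 of 86. With only the 6 p65 libraries 1 member, EGFL6, was called higher (log2 fold 0.95, adjusted p = 0.048). Narrower rules gave 33 of 35 members lower for a summed vector count of 0 and 46 of 47 for a mean of at least 1 CPM, since fewer genes then qualify. The rest, XAGE1B and ISX under the first rule and XAGE1B under the second, were not tested. With library totals alone 2820 of all genes were called lower and 3098 higher, against 3254 and 2431 with TMM, and the NF-kB feedback list then had 2 genes called higher. With libraries left out, all genes ran from 2883 to 3348 lower and 1888 to 2425 higher, the target list 36 to 41 and 3 to 5, and the feedback list 11 to 12 and 1 to 1. Of the members' single folds, 1275 kept their direction and their side of the threshold, 9 lost their call and 3 gained one. MGAM2 (0.26) turned to -0.81 without p65 2CS replicate 8 and to -0.04 without p65 WT replicate 5, with a highest value of 0.65 without p65 2CS replicate 7, and the cause was not tested. PXT1 lost its call with DESeq2 (adjusted p = 0.10), without the filter (0.079) and without p65 2CS replicate 7 or 9 or p65 WT replicate 5. No paired analysis was possible because the groups share no replicate number. Most p65 2CS levels rest on few reads, so their ratios to p65 WT are imprecise.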
